A study of Mus musculus with 1073 samples.

Results

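Megakaryocyte precursors (Mk) and primitive erythroid cells (EryP) of the mouse yolk sac at embryonic day 8.5 (E8.5) were compared gene by gene, as single cells of 2 sorted populations from the same stage and the same sequencing flow cell. The 37 Mk and 66 EryP cells were those the authors kept after quality control, out of 926 kept cells in the 13 populations of the series. Mk were sorted as TER119- CDH5- CD41+ and EryP as CD41- CDH5- TER119+, both from yolk sacs of C57BL/6 embryos carrying no named transgene or treatment. Cells were captured on a Fluidigm C1 chip for cells of 10 to 17 µm, and full-length cDNA was sequenced as paired reads of 100 bases. Haematopoietic progenitors (EMP, TER119- CDH5+ CD41+, 89 cells) and yolk sac endothelium (Endo, TER119- CD41- CDH5+, 79 cells) of the same stage and flow cell are given beside a result as reference levels.

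The yolk sac makes the first blood cells of the embryo. Primitive erythroid cells are large nucleated red cells that carry oxygen on embryonic globins, and the first megakaryocytes, which shed platelets, arise beside them at about the same time. In the adult the erythroid and megakaryocyte lineages pass through a shared progenitor and share a core of transcription factors around GATA1, TAL1, GFI1B and NFE2. KLF1 is known for activating the erythroid programme and FLI1, an ETS family factor, for activating platelet genes.

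Each population was sequenced in a single lane, lane 4 for Mk and lane 1 for EryP, and the labels name no embryo, pool of embryos or capture for any cell. Lane and population therefore cannot be told apart, each population counts as 1 sample, and no difference below has a replicate check or a test. Levels are given in CPM (counts scaled by the authors' size factor of each cell), with the lowest, median and highest cell. Totals in these units differ between cells, unlike those in plain CPM (counts scaled to a common total). Fold differences are ratios of the means after adding 1 CPM, which understates differences of low genes. Intervals and limits from 0 counts cover counting error only, and reads were counted without molecular identifiers. Mk cells held 2625003 to 5234733 counts (median 3536330) and EryP cells 1303515 to 3017274 (median 2099062.5), so shares of cells with a gene are less sensitive in EryP unless counts were thinned to 1300000 per cell. The authors kept 37 of 53 captured Mk cells (69.8%, exact 95% interval 55.7 to 81.7%) and 66 of 84 captured EryP cells (78.6%, 68.3 to 86.8%). Transcripts of both sexes, defined as at least 5 counts of *Xist* and at least 5 counts over 4 Y-linked genes, were found in 16 of 37 Mk cells (43.2%, 27.1 to 60.5%) and in 30 of 66 EryP cells (45.5%, 33.1 to 58.2%). In the reference populations they were found in 40 of 89 EMP cells (44.9%, 34.4 to 55.9%) and in 59 of 79 Endo cells (74.7%, 63.6 to 83.8%). A single cell has 1 sex, so the Mk globin shares and the correlation of erythroid and megakaryocyte sums in Mk are also given without the cells holding both. Counts of Mk cells within, below or above the EryP range are over all cells.

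The RNA carried the labels of the sort in part. *Itga2b*, which encodes CD41 and was selected by the gate, had 7.30, 138.2 and 614 CPM in the lowest, median and highest Mk cell and 0, 0.993 and 260.2 CPM in EryP, where 37 of 66 cells still held a count. *Cdh5*, excluded by both gates, was found in 5 of 37 Mk and 1 of 66 EryP cells. Both genes follow the gates and are not results.

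Most of the transcriptome was shared. Of 6592 genes with at least 20 CPM on average and a count in at least 50% of cells of either population, 4858 (73.7%) reached that level in both populations and differed by less than 2-fold. The 273 genes higher in Mk by at least 4-fold were 4.14% of those compared, and the 80 genes higher in EryP by at least 4-fold were 1.21%. The median log2 ratio of Mk over EryP was -0.08, with quartiles of -0.42 and 0.39. The difference was not symmetrical in its depth. Of the 273 Mk-high genes, 41 had no count in any EryP cell and 37 still reached the filter in EryP, and the median Mk-high gene was found in 18.2% of EryP cells. Of the 80 EryP-high genes, 0 were without a count in Mk and 27 reached the filter in Mk, and the median EryP-high gene was found in 50% of Mk cells. Genes that pass a filter only through the population in which they are high had to differ, so these counts describe the 2 populations and are not support for a difference. Detection here was not at equal depth: EryP cells held fewer counts, so a gene was less readily found in them.

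**Figure D1:**
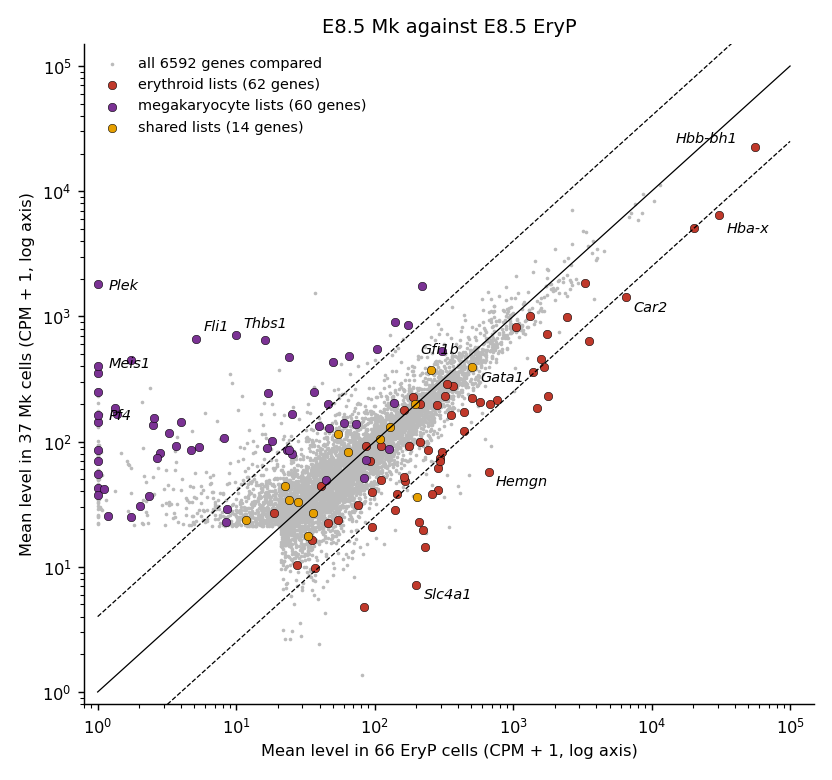
Mean level of each of the 6592 genes compared, in 66 EryP cells (x axis) and 37 Mk cells (y axis), as CPM + 1 on log axes; the solid line marks equal levels, the dashed lines a 4-fold difference, and colours the erythroid, megakaryocyte and shared gene lists. The megakaryocyte lists extend to the left edge, where EryP had no counts (*Plek*, *Meis1*, *Pf4*), while the erythroid lists lie below the diagonal but at appreciable levels in Mk.

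Globin transcripts were lower in Mk. All 7 globin genes that passed the filter, of 8 in the table and 11 listed, were lower in Mk, 3 of them by at least 4-fold, with a median log2 ratio of -1.98 against -0.08 over all genes compared (-4.09 from medians over cells in place of means). Of all genes compared, 54.7% were lower in Mk at any ratio. *Hbb-bh1*, the embryonic beta-like globin βH1, had 19.2, 21452 and 58584 CPM in Mk and 24909, 55436 and 99782 CPM in EryP. Its mean was 2.48-fold lower in Mk, and 21 of 37 Mk cells lay below the lowest EryP cell while the other 16 lay within the EryP range. *Hba-x*, the embryonic alpha-like globin ζ, had 9.41, 1646 and 31636 CPM in Mk and 14453, 29808 and 61696 CPM in EryP. It was 4.75-fold lower in Mk, with 28 of 37 Mk cells below every EryP cell.

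*Hbb-y*, the embryonic beta-like globin εy, spread widely in both populations. It had 0.661, 100.2 and 50600.4 CPM in Mk and 10.9, 17099.9 and 88785 CPM in EryP, so that 12 Mk cells lay below the lowest EryP cell. The alpha globins of later stages, *Hba-a1* and *Hba-a2*, were 5.49-fold and 8.05-fold lower in Mk, and the adult beta globins *Hbb-bs* and *Hbb-bt* 3.74-fold and 2.45-fold lower. *Hba-a1* and *Hba-a2* are near-identical copies, as are *Hbb-bs* and *Hbb-bt*, so the division of reads within each pair is uncertain. *Hbb-bh2* did not pass the filter and was found in 7 of 37 Mk and 25 of 66 EryP cells.

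Globin transcripts were also found in Mk, at shares between those of EryP and Endo in most cells. The 8 globin genes took 0.00445%, 2.69% and 12.0% of all counts in the lowest, median and highest Mk cell and 4.25%, 8.94% and 17.1% in EryP. In EMP they took 0.000473%, 0.0136% and 3.70%, and in Endo, which does not make globin, 0%, 0% and 0.0108%. The globin share of 36 of 37 Mk cells was above the highest Endo cell and that of 13 was above the highest EMP cell. The populations overlapped: 24 Mk cells were below the lowest EryP cell and 13 were within the EryP range, against 0 of 89 EMP cells in that range. In the 21 Mk cells without transcripts of both sexes the share was 0.00445%, 2.19% and 6.86%, and in the 16 with them 0.204%, 2.83% and 12.0%. No background share was measured for the Mk library itself, and the part of captured pairs of cells or of free RNA in these shares was not tested.

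**Figure D2:**
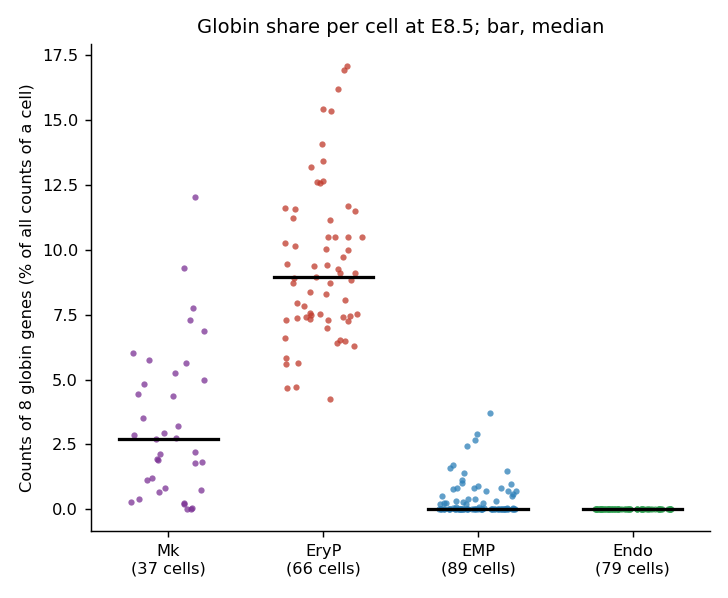
Share of all counts of a cell that fell on 8 globin genes (y axis, percent) in the 4 populations of E8.5, each point a cell and each bar the median. Mk cells (median 2.69%) spread from near 0 into the EryP range (median 8.94%), while EMP and Endo medians were 0.0136% and 0%.

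Haem synthesis genes were lower in Mk as a group. Of 15 listed genes 14 passed the filter, 13 of them with a ratio below 0 and 2 lower by at least 4-fold, with a median log2 ratio of -1.49. *Alas2*, the erythroid enzyme of the first step, had 0, 168 and 1530.3 CPM in Mk and 369.6, 1208 and 3925 CPM in EryP, 3.91-fold lower in Mk with 24 Mk cells below every EryP cell. *Cpox*, coproporphyrinogen oxidase, was 4.62-fold lower, at 0, 32.1 and 382 CPM in Mk and 21.7, 245 and 1228 CPM in EryP. The differences were smaller for *Urod* (2.78-fold) and *Fech*, the ferrochelatase that inserts iron (2.16-fold). *Tmem14c*, a mitochondrial porphyrin transporter, differed by 1.30-fold.

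Among the erythroid lists, the red cell membrane held the largest single ratio. Of 20 listed genes 19 were in the table and 18 passed, of which 8 were higher in EryP by at least 4-fold and 0 higher in Mk, with a median log2 ratio of -1.91 (-3.81 from medians over cells). Without genes of the sort gates the count was 7 of 17. *Slc4a1*, the anion exchanger band 3, had 0, 0 and 103.3 CPM in Mk and 0, 154.9 and 901 CPM in EryP, 27.8-fold apart. It was found in 8 of 37 Mk cells (21.6%, 9.83 to 38.2%) and 65 of 66 EryP cells (98.5%, 91.8 to 99.96%), with no count in EMP or Endo. *Rhd* and *Rhag*, of the Rhesus complex, were 17.4-fold and 11.4-fold higher in EryP, with medians of 0 CPM in Mk and 47.2 and 121.6 CPM in EryP. *Ermap*, an erythroblast membrane protein, was 16.1-fold higher in EryP, *Add2*, a β-adducin of the membrane skeleton, 9.25-fold, *Epb42*, protein 4.2, 6.81-fold and *Ank1*, ankyrin 1, 4.63-fold. *Sptb*, a spectrin, was closer, at 1.92-fold, and *Gypc* and *Epb41*, whose products also serve other cells, differed by 1.16-fold and 1.39-fold. The list thus ran from transcripts rare in Mk, such as *Slc4a1*, to transcripts at near equal levels.

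Of 10 iron handling genes that passed, 6 were within 2-fold, against 82.8% of all genes compared, and 1 was higher in EryP by at least 4-fold. That gene was *Slc25a37*, mitoferrin 1, which brings iron into mitochondria, at 0, 60.6 and 1998 CPM in Mk and 502, 1682 and 4375 CPM in EryP, 7.65-fold apart with 30 of 37 Mk cells below the lowest EryP cell. *Tfrc*, the transferrin receptor, was 2.43-fold lower in Mk, at 9.94, 582 and 3152 CPM against 30.7, 1469 and 5943 CPM. The ferritin subunits *Fth1* and *Ftl1* were 1.77-fold and 1.27-fold lower.

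Among 14 erythroid regulators and enzymes that passed, of 17 in the table, 5 were higher in EryP by at least 4-fold and 5 were within 2-fold, against 1.21% and 82.8% of all genes compared. *Hemgn*, a nuclear protein of erythroid cells, had 0, 0.394 and 794 CPM in Mk and 1.37, 650.2 and 1853 CPM in EryP, 11.6-fold apart. *Klf1* had 0, 17.4 and 124.6 CPM in Mk and 0, 114.3 and 670.3 CPM in EryP, 4.95-fold apart, and still held a count in 29 of 37 Mk cells (78.4%, 61.8 to 90.2%) against a mean of 0 CPM in Endo. *Bpgm*, which makes the haemoglobin effector bisphosphoglycerate, was 6.93-fold higher in EryP and *Car2*, carbonic anhydrase 2, 4.58-fold. *Car2* had 107.2, 1198 and 10843 CPM in Mk and 2315, 6321 and 13891 CPM in EryP, with 32 Mk cells below every EryP cell. *Prdx2*, a peroxiredoxin of red cells, was 2.46-fold lower in Mk, and 30 Mk cells lay below its lowest EryP cell. *Epor*, the erythropoietin receptor, did not follow these genes, with 0, 64.1 and 351 CPM in Mk and 0, 88.6 and 374 CPM in EryP. *Gata1* is described with the shared factors.

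Outside the lists, the genes with the largest ratios toward EryP among those found in at least 90% of EryP cells were *Slc29a1*, a nucleoside transporter (0, 0.560 and 150.5 CPM in Mk; 17.2, 349.7 and 913 CPM in EryP; 16.5-fold), *Rragd*, a GTPase of amino acid sensing (12.5-fold), *Adra2b*, an adrenergic receptor (10.7-fold), *Mgst3*, a microsomal glutathione S-transferase (9.14-fold), and *Ucp2*, a mitochondrial carrier (8.83-fold). In *Slc29a1* 26 Mk cells and in *Mgst3* 31 Mk cells lay below the lowest EryP cell.

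Platelet receptors were high in Mk and low or without counts in EryP. Of 26 listed genes, all in the table, 16 passed the filter, and 14 of these were higher in Mk by at least 4-fold against 4.14% of all genes compared, with a median log2 ratio of 3.94. Without *Itga2b*, which the gate selected, the count was 13 of 15 and the median 4.06. With no filter the median over all 26 genes was 2.91. The 26 genes summed to a median of 2633 CPM in Mk, 310 CPM in EryP, 1878 CPM in EMP and 2185 CPM in Endo. *F2rl2*, the thrombin receptor PAR3, had 0, 224 and 1747 CPM in Mk, with a count in 36 of 37 cells, and no count in 66 EryP cells, a result compatible with a share of at most 4.55%. Set against 3 counts over all EryP cells, it was 16363-fold higher in Mk. That fold is no lower bound, since the limit of 4.55% of cells would allow a smaller one. *F2r*, the thrombin receptor PAR1, was found in both, at 221, 884 and 2191 CPM in Mk and 0, 83.0 and 784 CPM in EryP, 6.44-fold apart.

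The adhesion receptors were uneven. *Itgb3*, the partner of CD41 in the fibrinogen receptor, had 13.8, 412 and 1422 CPM in Mk and 0, 10.8 and 384 CPM in EryP, 8.74-fold apart. Of the von Willebrand factor receptor, *Gp1ba* had 0, 41.0 and 343 CPM in Mk and was found in 3 of 66 EryP cells, 27.4-fold apart. Its partners *Gp1bb* and *Gp5* had means of 3.33 and 7.15 CPM in Mk, below the filter, and no count in EryP, and *Gp9* had a mean of 21.7 CPM in Mk and 7.43 CPM in EryP. *Clec1b*, the podoplanin receptor CLEC-2, was found in 28 of 37 Mk cells, at 0, 8.71 and 476 CPM, and in no EryP cell (4193-fold against 3 counts). *Gp6*, a collagen receptor, was found in 5 Mk cells at a mean of 2.87 CPM, and *Cd36* in none. *P2rx1*, an ATP-gated channel, was 36.0-fold higher in Mk and *P2ry1*, an ADP receptor, 5.26-fold, while *P2ry12*, the other ADP receptor of platelets, was found in 5 Mk cells.

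Granule genes fell into a high and a low part. Of 23 listed, 11 passed, 7 of them higher in Mk by at least 4-fold and 3 within 2-fold, with a median log2 ratio of 6.15. Over all 23 genes, with no filter, the median was 2.68, and from medians over cells it was 4.01. The 23 genes summed to a median of 3360 CPM in Mk, 275 CPM in EryP, 2411 CPM in EMP and 3044 CPM in Endo. *Plek*, pleckstrin, a protein kinase C substrate of platelets, had 1.19, 1734 and 4464 CPM in Mk and no count in any EryP cell, so that the populations did not overlap (82336-fold against 3 counts). *Thbs1*, thrombospondin 1, had 2.72, 492 and 2585 CPM in Mk and 0, 0 and 337 CPM in EryP, 71.2-fold apart. *Rab27b*, a GTPase of granule transport, had 3.18, 351 and 2404 CPM in Mk and was found in 1 EryP cell. *Clu*, clusterin, was found in 35 of 37 Mk cells and in no EryP cell (6577-fold against 3 counts).

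*Pf4*, platelet factor 4, the chemokine often used as the mark of megakaryocytes, was variable. It had 0, 15.2 and 1236 CPM in Mk, with a count in 31 of 37 cells (83.8%, 68.0 to 93.8%). It had no count in EryP (8273-fold against 3 counts). *Ppbp*, the other abundant platelet chemokine, had no count in the 37 Mk cells (upper limit of the share 8.11%), and *Selp*, P-selectin, was found in 1 Mk cell. *Vwf*, von Willebrand factor, had 0, 1.05 and 248 CPM in Mk and 0, 0 and 24.2 CPM in EryP. *F5*, *Mmrn1* and *Pdgfb* each had no count in EryP but were found in at most 17 of 37 Mk cells. In the Mk sorted at E10.5 (73 cells, sequenced on another flow cell, so that stage and flow cell cannot be told apart), the mean was 4902 CPM for *Pf4* and 318 CPM for *Ppbp*, and 0.466 CPM for *Hba-x* and 315 CPM for *Hbb-bh1*.

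Cytoskeletal and signalling genes of megakaryocytes were higher in Mk than in EryP with few exceptions. Of 27 listed, 22 passed, 16 were higher in Mk by at least 4-fold and 1 was within 2-fold, with a median log2 ratio of 3.79 (3.00 with no filter). The 27 genes summed to a median of 5078 CPM in Mk, 833 CPM in EryP, 4094 CPM in EMP and 5661 CPM in Endo. *Tubb1*, the β1-tubulin of the platelet rim, had 1.02, 232 and 726 CPM in Mk and 0, 0 and 160.1 CPM in EryP (14.4-fold). *Rap1b*, the GTPase that switches on integrins, had 216, 1692 and 5782 CPM in Mk and 0, 166 and 728 CPM in EryP (7.98-fold), with 33 of 37 Mk cells above every EryP cell. *Zyx*, zyxin, was 19.8-fold higher, *Rasgrp2*, the exchange factor for RAP1, 13.2-fold, *Tln1*, talin 1, 5.24-fold, and *Fermt3*, kindlin 3, 4.91-fold. *Bin2*, an adaptor at the membrane, was found in 35 Mk cells and 1 EryP cell. *Lat* and *Treml1*, adaptor and receptor of platelet activation, and *Ptgs1*, the cyclooxygenase of platelets, were found in 32, 28 and 27 Mk cells and in no EryP cell. Actin-binding genes used by many cells were closer, *Tpm1* at 1.89-fold, *Flna* at 2.74-fold and *Myh9* at 3.38-fold.

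Of 16 transcription factors linked with megakaryocytes, 11 passed and 8 were higher in Mk by at least 4-fold, with a median log2 ratio of 3.93 (2.29 with no filter). The 16 genes summed to a median of 2794 CPM in Mk, 571 CPM in EryP, 2802 CPM in EMP and 3663 CPM in Endo. *Meis1*, a homeobox factor, had 0.290, 305 and 2332 CPM in Mk and no count in EryP (18865-fold against 3 counts). Its means were 519 CPM in EMP and 289.8 CPM in Endo. *Fli1* had 0.340, 520.2 and 1869 CPM in Mk and 0, 0 and 39.5 CPM in EryP, a log2 ratio of 7.01 with 36 of 37 Mk cells above every EryP cell. *Mef2c* was 40.1-fold, *Hhex* 35.4-fold, *Etv6* 28.9-fold, *Gata2* 15.2-fold and *Elf1* 5.55-fold higher in Mk. *Runx1* had 19.6, 168 and 702 CPM in Mk and 0, 18.7 and 267 CPM in EryP (4.38-fold). Other factors were within 2-fold, among them the ETS factors *Gabpa* (means of 70.8 and 86.1 CPM) and *Ets1* (201 and 137.7 CPM). *Erg* was found in 5 Mk cells, and *Mecom* and *Nfib* had no count in either population.

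**Figure D3:**
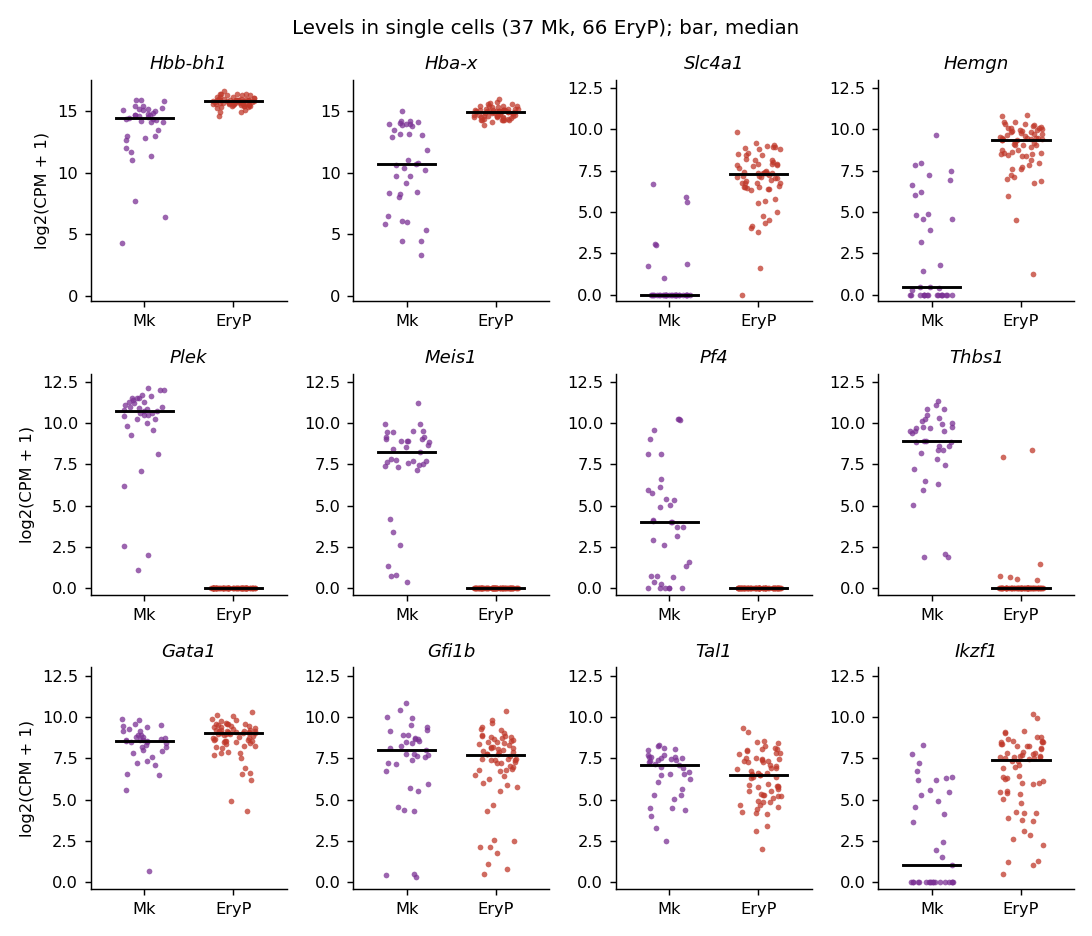
Level of 12 genes in each cell as log2(CPM + 1), 37 Mk cells and 66 EryP cells, each point a cell and each bar the median. *Plek* and *Meis1* do not overlap between the populations, *Hbb-bh1* and *Hba-x* overlap in their upper Mk cells, and *Gata1*, *Gfi1b* and *Tal1* cover like ranges in both.

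Of 18 factors that both lineages use, 14 passed, and 11 of these were within 2-fold, a share near the 82.8% of all genes compared; 0 were higher in Mk by at least 4-fold and 1 was higher in EryP, with a median log2 ratio of 0.13. *Gata1* had 0.584, 375 and 939 CPM in Mk and 18.8, 512 and 1239.7 CPM in EryP, a difference of 1.28-fold. *Tal1* had 4.68, 136.9 and 310.3 CPM in Mk and 2.98, 90.5 and 633 CPM in EryP, with means of 130.9 and 128.95 CPM. *Nfe2*, whose product drives both globin and platelet genes, had means of 197 and 194 CPM, and *Gfi1b*, a repressor, 371 and 256 CPM. *Lmo2*, the bridging factor of the GATA1 complex, was 2.13-fold higher in Mk. The exception was *Ikzf1*, encoding Ikaros, at 0, 1.0995 and 312 CPM in Mk and 0.436, 167 and 1172 CPM in EryP (5.55-fold), with 18 Mk cells below every EryP cell. Spread between cells was wide for every factor, and no interval over embryos can be given for the near equal means.

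**Figure D4:**
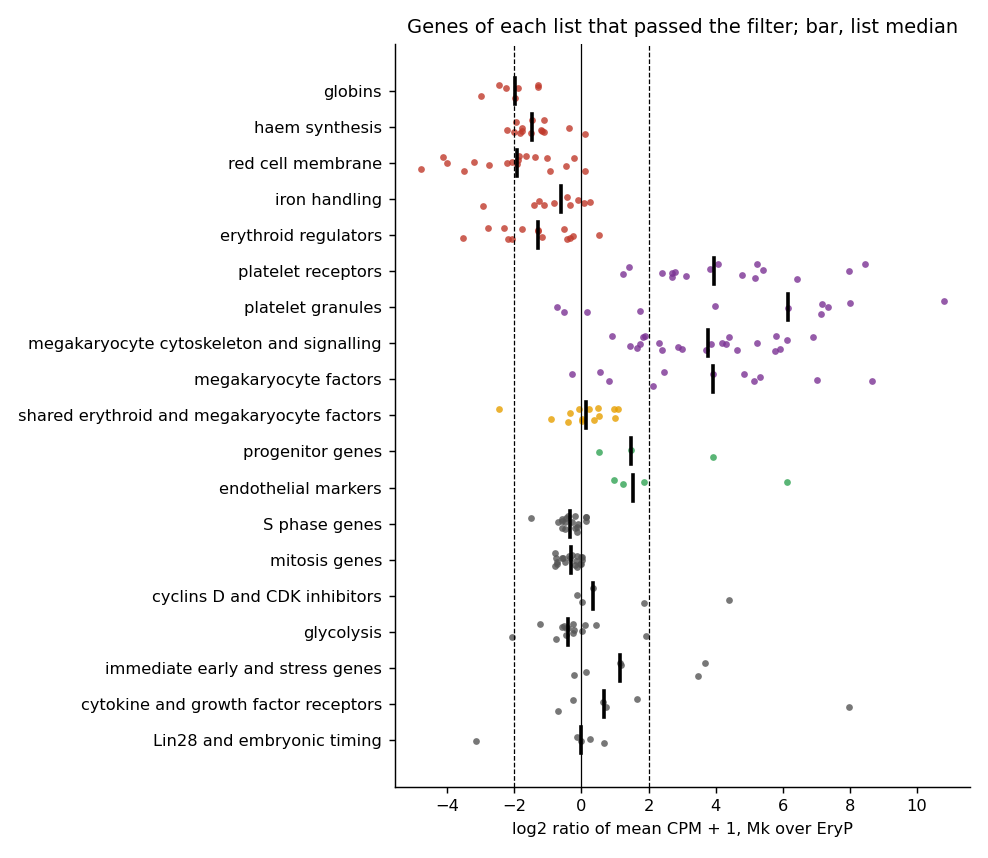
Log2 ratio of mean CPM + 1, Mk over EryP (x axis), of each gene that passed the filter, by gene list (rows with at least 3 such genes); black bars mark list medians and dashed lines a 4-fold difference. The 5 erythroid lists have medians between -1.98 and -0.62, the 4 megakaryocyte lists between 3.79 and 6.15, and the shared factors 0.13, near the -0.08 of all genes compared.

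To set the sequence beside the values, promoters are shown for 3 EryP-high and 3 Mk-high genes described above, chosen for display, as the 250 bases before the RefSeq start of GRCm38.p6, 5′ to 3′ on the strand of the gene. Capitals mark the letters that GATA factors are known to bind, AGATAA with T allowed in place of its first base and G in place of its last, and CCGGAA, the core known for ETS factors, on either strand. They lie at chr11:32276350-32276599 (plus strand, *Hba-x*), chr4:46404184-46404433 (minus strand, *Hemgn*), chr4:119189996-119190245 (minus strand, *Ermap*), chr11:70638872-70639121 (plus strand, *Gp1ba*), chr6:129397047-129397296 (plus strand, *Clec1b*) and chr11:19018970-19019219 (minus strand, *Meis1*).
Hba-x: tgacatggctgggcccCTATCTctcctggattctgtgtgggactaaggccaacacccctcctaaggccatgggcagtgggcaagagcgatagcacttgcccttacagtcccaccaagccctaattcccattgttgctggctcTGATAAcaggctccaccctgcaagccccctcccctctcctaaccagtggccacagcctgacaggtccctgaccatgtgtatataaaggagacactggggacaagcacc
Hemgn: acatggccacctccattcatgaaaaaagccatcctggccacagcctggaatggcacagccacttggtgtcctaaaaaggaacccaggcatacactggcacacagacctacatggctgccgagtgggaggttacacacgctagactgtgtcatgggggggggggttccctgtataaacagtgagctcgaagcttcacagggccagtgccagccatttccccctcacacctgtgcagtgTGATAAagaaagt
Ermap: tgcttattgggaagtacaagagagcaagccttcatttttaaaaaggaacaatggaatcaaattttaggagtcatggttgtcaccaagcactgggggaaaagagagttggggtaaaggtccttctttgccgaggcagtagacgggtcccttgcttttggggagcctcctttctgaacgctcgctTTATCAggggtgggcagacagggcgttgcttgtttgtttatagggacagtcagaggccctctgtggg
Gp1ba: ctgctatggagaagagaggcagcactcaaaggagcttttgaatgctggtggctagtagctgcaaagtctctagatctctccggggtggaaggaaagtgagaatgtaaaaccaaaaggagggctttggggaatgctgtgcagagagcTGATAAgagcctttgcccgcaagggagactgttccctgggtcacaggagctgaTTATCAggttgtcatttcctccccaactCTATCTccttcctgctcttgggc
Clec1b: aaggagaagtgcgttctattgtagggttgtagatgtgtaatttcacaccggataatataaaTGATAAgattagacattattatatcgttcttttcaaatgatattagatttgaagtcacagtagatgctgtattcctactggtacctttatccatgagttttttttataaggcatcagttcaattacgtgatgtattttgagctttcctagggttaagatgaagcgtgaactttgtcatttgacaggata
Meis1: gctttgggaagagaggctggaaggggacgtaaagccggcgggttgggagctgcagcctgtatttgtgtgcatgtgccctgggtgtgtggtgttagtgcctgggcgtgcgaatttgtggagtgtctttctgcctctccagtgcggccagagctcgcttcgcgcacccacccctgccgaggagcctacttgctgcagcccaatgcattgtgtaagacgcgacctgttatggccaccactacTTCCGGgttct

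In the windows shown, GATA letters stood on both sides of the comparison. There were 2 matches in *Hba-x*, 1 in *Hemgn*, at 13 bases before the start, and 1 in *Ermap*, at 67 bases. *Gp1ba* held 3, the nearest at 23 bases, and *Clec1b* 1, at 189 bases. The *Meis1* window held the ETS letters, at 11 bases before the start, and no GATA letters. Of all 32851 windows of this length, 26.5% held GATA letters and 12.0% the ETS letters on either strand. The windows shown were picked for display and each holds marked letters, so their matches cannot be compared with these shares. A match is a description of the letters and not a binding site, and no share was taken over the EryP-high genes, since windows were at hand for 57 of 80 (71.3%).

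At equal depth, exclusivity lay on the Mk side. With each cell thinned to 1300000 counts, 78 of 8167 genes (0.955%) were found in at least 50% of Mk cells and in at most 5% of EryP cells, and 0 (0%) the other way. Other thresholds gave at most 4 genes near exclusive to EryP. Of the 78 genes, 39 had no count in any thinned EryP cell and 21 were on the megakaryocyte lists. Most were not particular to Mk within the yolk sac: 57 had a mean of at least 20 CPM in EMP and 34 in Endo. Besides the platelet genes above they held signalling genes of blood cells, such as *Sla*, an adaptor, and *Kdr*, the VEGF receptor. *Sla* had 0, 97.3 and 1425 CPM in Mk and no count in EryP (10958-fold against 3 counts).

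Separation of every cell was rare. In 3 of the 6592 genes (0.0455%) the lowest Mk cell was above the highest EryP cell, and in 0 (0%) the reverse held. These were *Plek*, *Meis1* and *Arhgdib*, a GDP dissociation inhibitor of blood cells with 33.9, 213 and 786 CPM in Mk and 0, 0 and 31.1 CPM in EryP. Of these, *Plek* alone remained without overlap once depth was equal.

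Erythroid and megakaryocyte genes were both present in the same Mk cells, in opposite proportions. The 71 erythroid genes in the table, globins included, summed to 6831, 35454 and 183129 CPM in Mk and 66943, 139280 and 293718 CPM in EryP, with 25 of 37 Mk cells below every EryP cell. The 92 megakaryocyte genes summed to 4934, 15353 and 37277 CPM in Mk and 880, 2014 and 3159 CPM in EryP, so that all 37 Mk cells lay above the highest EryP cell, also with *Itga2b* left out. In EMP the same genes summed to 4625, 11260 and 29297 CPM and in Endo to 7841, 13939 and 24500 CPM. The megakaryocyte sum was thus not particular to Mk among these populations. Without globins, 32 Mk cells lay below every EryP cell in the erythroid sum. Across the 37 Mk cells Pearson's r between the log2 values of the 2 sums was -0.81 and Spearman's coefficient -0.78, and r was -0.78 without the 2 cells farthest from the median. Across the 66 EryP cells r was -0.00 and the Spearman coefficient -0.03. These are descriptions over cells of a single lane, and both sums are relative levels scaled by the same size factor of the cell. With globins and *Pf4* left out r in Mk was -0.80, and in the Mk cells without transcripts of both sexes -0.83. The sums went with the number of counts per Mk cell at r of -0.27 for the erythroid and 0.20 for the megakaryocyte sum. The part of captured pairs of cells in the sums was not tested.

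**Figure D5:**
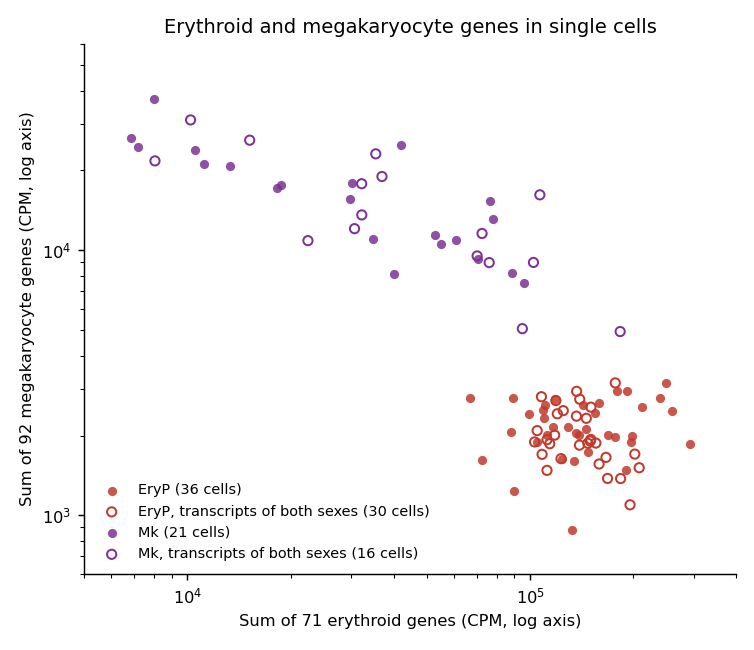
Sum of 71 erythroid genes (x axis) and of 92 megakaryocyte genes (y axis) in each cell, in CPM on log axes; open circles are cells with transcripts of both sexes. All 37 Mk cells lie above the highest EryP cell on the y axis, and Mk cells with a higher erythroid sum have a lower megakaryocyte sum (r of -0.81), whereas EryP cells show no such slope (r of -0.00).

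Markers of other yolk sac cells were scarce in both populations. The 18 endothelial markers summed to 21.6, 239 and 574 CPM in Mk and 0, 23.3 and 327 CPM in EryP, against 617, 7447 and 12647 CPM in Endo. *Ramp2*, *Emcn*, *Cldn5*, *Sox7*, *Sox17*, *Sox18* and *Lyve1* had no count in either Mk or EryP. *Kdr* was the gene of this list past 4-fold, with 0, 18.2 and 325 CPM in Mk, a count in 33 of 37 cells and none in EryP, against a mean of 739 CPM in Endo. *Pecam1*, *Tek* and *Egfl7*, endothelial genes that blood progenitors also use, were 3.62-fold, 1.98-fold and 2.33-fold higher in Mk. Of the 12 macrophage, 14 mesoderm and 3 visceral endoderm markers in the table, 0 passed the filter, and their median sums were 0, 0.497 and 0 CPM in Mk and 0 CPM for each in EryP. The highest cells reached 114.7, 234 and 25.3 CPM in Mk and 90.6, 32.5 and 2.72 CPM in EryP. *Csf1r*, *C1qa*, *Adgre1* and *Cx3cr1*, which mark macrophages, had no count in either population.

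Of the 16 progenitor genes 3 passed, and 1 of them, *Gata2*, was higher in Mk by at least 4-fold. *Csf2rb*, the common β chain of cytokine receptors, was present in both at means of 429 and 299.6 CPM, against 46.0 CPM in EMP and 0 CPM in Endo. *Adgrg1*, an adhesion receptor, was 2.77-fold higher in Mk. *Cd34* was found in 3 Mk cells and no EryP cell against a mean of 394 CPM in EMP, and *Ptprc*, *Flt3* and *Irf8* had no count in either. *Kit* had means of 19.9 CPM in Mk, 8.08 CPM in EryP and 107.5 CPM in EMP, and *Myb* 14.5, 2.28 and 39.9 CPM.

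Most proliferation genes were within 2-fold, as were 82.8% of all genes compared. All 18 S phase genes passed, 17 within 2-fold and 15 lower in Mk, with a median log2 ratio of -0.35. All 20 mitosis genes passed, all within 2-fold and 18 lower in Mk, with a median of -0.32. Of all genes compared, 54.7% were lower in Mk. With plain CPM the 2 medians were -0.19 and -0.17, against 0.09 over all genes. The S phase genes summed to 3555, 6728 and 12141 CPM in Mk and 4956, 9095 and 19904 CPM in EryP, and the mitosis genes to 1237, 4720 and 9894 CPM and 2620, 6192 and 13923 CPM. The gene beyond 2-fold was *Ccne1*, cyclin E1, at means of 38.0 CPM in Mk and 109.6 CPM in EryP. Of the regulators of G1, *Cdk6* stood apart, with 0, 12.7 and 283 CPM in Mk, a count in 22 of 37 cells, and a count in 2 of 66 EryP cells (21.0-fold higher in Mk), whereas *Cdk4* had means of 569.8 and 561 CPM and *Ccnd3* 337 and 267 CPM.

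Of 15 glycolytic genes that passed, 12 were within 2-fold, a share near that of all genes compared, with a median log2 ratio of -0.41. *Pdk1*, the kinase that closes pyruvate dehydrogenase, had 0, 6.62 and 338 CPM in Mk and 0, 106.8 and 1659 CPM in EryP (4.18-fold), and *Slc2a1*, the glucose transporter GLUT1 of the red cell list, was 3.62-fold higher in EryP. *Pfkp*, the platelet isoform of phosphofructokinase, was 3.80-fold higher in Mk and *Pfkl*, the liver isoform, 2.34-fold higher in EryP, while *Pfkm* had means of 59.9 and 72.0 CPM.

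Immediate early genes, which respond to dissociation of tissue, were uneven. Of 6 that passed, 2 were higher in Mk by at least 4-fold: *Egr1* at 0, 10.53 and 1746 CPM against 0, 0 and 321 CPM (12.8-fold), and *Fos* at 0, 0.313 and 596 CPM against 0, 0 and 110.8 CPM (11.1-fold). The part of cell handling in these values was not tested. The stress genes *Hspa1b* and *Ddit3* had means of 31.7 and 29.1 CPM and of 15.3 and 16.2 CPM.

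Of 15 receptors for cytokines and growth factors 6 passed, 1 of them higher in Mk by at least 4-fold, with *Epor* and *Igf1r* within 2-fold in both populations. Of 9 embryonic timing genes 5 passed, 4 within 2-fold and 1 higher in EryP by at least 4-fold. That gene was *H19*, an imprinted non-coding RNA, with 0, 21.2 and 383 CPM in Mk and 16.9, 375 and 2329.8 CPM in EryP, against means of 182 CPM in EMP and 541 CPM in Endo. It was 8.88-fold higher in EryP, with 17 Mk cells below every EryP cell. *Lin28b* had means of 142.7 and 143.8 CPM, *Igf2bp1* 198 and 219 CPM and *Igf2bp3* 63.9 and 53.1 CPM. *Lin28a* was found in 7 Mk cells and 1 EryP cell, and *Hmga2* in 16 Mk cells and 3 EryP cells at means of 6.26 and 0.0553 CPM, against 467 CPM in EMP.

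The genes shared at the highest means, leaving out ribosomal, mitochondrial and globin genes, were housekeeping genes, among them *Eef1a1* (means of 5861 and 8007 CPM), *Hsp90ab1* (6663 and 8471 CPM), *Ptges3* (6186 and 6834 CPM), *Npm1* (3473 and 4047 CPM), *Hnrnpa2b1* (3667 and 3480.4 CPM) and *Sept2* (4707 and 3338 CPM). At equal depth Mk cells held 6219, 8057 and 9470 genes with a count and EryP cells 5220, 7127.5 and 8483.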

How the data were processed

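Gene counts and normalised levels of single cells were used as deposited. The authors aligned reads to GRCm38 (Ensembl 84) with Subread, counted them per gene with featureCounts, removed poor cells with scater, and deposited whole-number counts for the kept cells, together with a normalised signal per gene, CPM scaled by the authors with scran size factors. Tool versions are not given in the sources used here. Cells were taken by the group of their label. Levels and log2 ratios were computed from the deposited CPM with 1 CPM added, over genes with a mean of at least 20 CPM and at least 1 count in 50% of cells of either population; the thresholds were 4-fold and, for shared genes, 2-fold. Globin shares, detection and intervals (exact Clopper-Pearson, 95%) came from the counts, thinned without replacement to 1300000 where stated. Folds against a population with 0 counts used 3 counts over that population and are not lower bounds. A share of 0 of n cells allows 3 of n. No doublet caller was run, and no test was made, since each population was 1 sample.

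The text names members of the lists, the 10 genes of largest ratio in each direction found in at least 90% of cells of the higher population, and the 10 shared genes of highest lower mean; *Asb17*, *Sgk3*, *Spef1* and *Abcg4* in the closing section were named after their values were seen. The populations and lists were chosen with earlier results of these data known. Promoter sequences are from RefSeq (GRCm38.p6), matched by symbol. A comparison of motif shares by gene set was void, since windows matched 57 of 80 EryP-high (71.3%) and 4949 of 6592 compared genes (75.1%); the planned motif CCNCNCCC stood in 45.9% of all windows. Some genes of the lists entered the counts, medians and sums but are not reported here by name. Scripts ran on Python 3.11.15 (plots by matplotlib 3.10.9; tables by pandas 2.3.3; intervals by scipy 1.17.1; thinning by numpy 2.4.6), and were tested on simulated data. Alternatives were plain CPM, CPM without globins, thinned counts, other pseudocounts and filters, medians, means of log2 values, all captured cells, and, added after the data were seen, leaving out cells with transcripts of both sexes or genes of the sort gates.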

Additional observations from a re-analysis of the deposited data

How the results depend on the processing

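No paired analysis was possible because the labels name no embryo, pool or capture that would link cells of the 2 populations. No list median and no gene ratio changed its direction past the threshold under the alternatives run; across lists and settings, 180 list medians moved by less than 1.5-fold and 31 by more. The cause of these moves was not tested beyond the construction of each setting. Plain CPM moved the median log2 ratio of all genes from -0.08 to 0.09 and gave 299 Mk-high and 64 EryP-high genes. With a pseudocount of 0.1 the medians were 4.56 for platelet receptors and 4.73 for megakaryocyte factors. With a pseudocount of 10 they were 2.57 for platelet receptors, 3.94 for granules, 2.71 for cytoskeleton and signalling and 2.02 for factors, with 184 genes past 4-fold in place of 353, 35 of them EryP-high (2.26% and 0.531% of the genes compared). With a filter of 100 CPM they were 2.96 for receptors, 7.17 for granules, 3.00 for cytoskeleton and signalling and 3.68 for immediate early genes, with 85 Mk-high, 35 EryP-high and 1813 shared genes (3.23%, 1.33% and 68.9%). With no filter they were 2.91 for receptors, 2.68 for granules, 3.00 for cytoskeleton and signalling, 2.29 for factors, 0.0171 for progenitor genes and 0.25 for endothelial markers, with 830, 296 and 12378 genes (5.20%, 1.85% and 77.5%). From medians over cells they were -4.09 for globins, -3.81 for red cell membrane, 4.74 for receptors, 4.01 for granules, 5.16 for factors and 3.59 for endothelial markers, with 753 and 231 genes (11.4% and 3.50%). From means of log2 values they were -4.42 for globins, -2.25 for haem synthesis, -2.90 for membrane, -2.14 for erythroid regulators and 4.03 for granules. Without cells with transcripts of both sexes, an alternative chosen after seeing the data, they were -2.66 for globins, 4.77 for receptors, 4.64 for factors and 2.02 for immediate early genes, with 455 genes past 4-fold, 326 of them Mk-high (EryP-high 2.00%). Leaving out genes of the sort gates, also chosen after seeing the data, moved no list median by over 1.5-fold. All captured cells gave 397 genes past 4-fold, 275 of them Mk-high (EryP-high 2.22%).

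The absence of genes near exclusive to EryP depended on the threshold: a floor of 10 counts gave 1 (*Sgk3*), a limit of 10% gave 4 (*Abcg4*, *Asb17*, *Sgk3*, *Spef1*), and leaving out cells with transcripts of both sexes gave 4 (*Asb17*, *Rhd*, *Sgk3*, *Spef1*). Genes without overlap were 1 (*Plek*) with thinned counts, 5 with 2 cells allowed to overlap (*Rab27b* and *Thbs1* added) and 5 without cells with transcripts of both sexes (*Fli1* and *Rab27b* added). At 50 counts 16 EryP cells held transcripts of both sexes. Motif shares in the near exclusive genes were not run, and how many of these genes matched a window was not counted. Of the Mk-high genes, 221 of 273 (81.0%) matched a window. Depth limits the statements of absence in EryP, whose cells held fewer counts.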
